A study of Mus musculus with 6 samples.

Results

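The genes of the translation initiation and elongation factors were examined in D2A1 cells, a mouse mammary tumor cell line, grown in 3D Matrigel with DMEM and 10% FBS. The genes were taken by a rule on names, set with earlier results of these data known. It took every gene whose symbol begins with Eif or Eef followed by a digit, without the 9 names that carry -ps. This gave 68 of the 54146 genes in the table. Cells received 50 nM of recombinant SLURP1 (rSLURP1), a secreted protein of the Ly6 family, or 50 nM of recombinant GST (rGST), the control protein, and 3 libraries of each treatment were sequenced. The cells of both groups were of 1 line and the labels give no genetic change in either, and the methods place the harvest on day 5. The labels do not say whether the 3 libraries of a group came from separate cultures, so p-values measure the spread between these libraries, which may be technical. Values are TPM, transcript abundances per length scaled to a fixed total in each library, which can be compared between genes but keep no read depth, so the depth behind each value is unknown.

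Protein synthesis starts when eIF2, carrying the initiator tRNA, joins the small ribosomal subunit with eIF1, eIF1A, eIF3 and eIF5, and when eIF4E binds the mRNA cap within the eIF4F complex of eIF4E, eIF4G and the helicase eIF4A. Elongation then needs eEF1A, which brings aminoacyl-tRNA to the ribosome, the eEF1B subunits that reload eEF1A with GTP, and eEF2, which moves the ribosome by a codon. Cells slow the process at known points: eIF2 kinases phosphorylate eIF2 under stress, hypophosphorylated 4E-binding proteins hold eIF4E away from eIF4G, and eEF2 kinase inactivates eEF2. Transcripts of many elongation factors begin with a run of pyrimidines at the 5′ end, through which mTOR signaling controls their translation.

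The start windows of 5 factor genes are shown as examples because that pyrimidine run is known from many elongation factors. The 5 were not picked by a rule, and a single annotated start is shown for each. Each window holds the 15 bases before and the 15 bases from the annotated transcript start, read 5′ to 3′ on the strand of the gene, and capitals mark an unbroken run of C and T of at least 5 bases that opens with C and begins within 5 bases of the start. Sequences are from RefSeq, build GRCm38.p6.
Eef1a1 (chr9:78481710-78481739, minus strand): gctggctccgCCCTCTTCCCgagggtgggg
Eef1b2 (chr1:63176816-63176845, plus strand): tggacctgcagttccgccggaagtagccga
Eef2 (chr10:81176616-81176645, plus strand): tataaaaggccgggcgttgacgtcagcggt
Eif3f (chr7:108934400-108934429, plus strand): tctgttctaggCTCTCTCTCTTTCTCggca
Eif2s3x (chrX:94212637-94212666, minus strand): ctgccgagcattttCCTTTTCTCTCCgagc

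A run by this rule was present in the windows of Eef1a1, Eif3f and Eif2s3x, and in those of Eef1b2 and Eef2 no run met it. The marked runs begin at −5, −4 and −1 relative to the annotated start, so part of each lies outside the annotated transcript. The 5′ ends of the mRNAs in these libraries were not mapped. Neither a run nor its absence here therefore shows whether a transcript opens with pyrimidines. A promoter row was found for 53 of the 68 genes. By the limma calls of the later comparison, the run was found in 3 of 9 genes that were higher with rSLURP1 (33.3%). It was found in 7 of 25 that were lower (28%) and in 3 of 15 past neither threshold (20%). A gene was counted when any of its promoter rows held the run, with 68 rows for the 53 genes. Of all 32851 promoter rows 18.3% held it, a share of rows that cannot be set directly against shares of genes. The windows depend on the annotated start, and a run is a description of these letters only.

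A gene was tested when 3 or more libraries reached 1 TPM, which 63 of the 68 genes did. The 5 that did not were Eef1a2, the muscle and neuron form of eEF1A, at 0 to 0.04 TPM, Eif4e1b, a germline relative of eIF4E, at 0 to 0.02, Eif2s3y, the Y-linked eIF2 gamma gene, listed at 0 in all 6 libraries, the readthrough gene Eef1akmt4-ece2 at 0 to 0.69, and Eif2c5, a noncoding gene with an older Argonaute-type name, at 0 to 0.03. Libraries of the same treatment correlated at 0.983 to 0.986 over the tested genes and libraries of different treatments at 0.941 to 0.950. Of 7 mammary epithelial markers only Krt18 (191 to 199 TPM) and Krt8 reached the filter, while Epcam, Krt5 and Krt14 were listed at 0 in all libraries, and the 7 summed to 193 to 201 TPM with rGST and 197 to 201 with rSLURP1. The 5 mesenchymal markers summed to 1500 to 1648 TPM with rGST and 719 to 772 with rSLURP1. Of 5 immune markers, Cd68 alone reached the filter (3.57 to 4.07 against 7.75 to 10.6 TPM), Cd3e, Itgam and Adgre1 were listed at 0, and the 3 endothelial markers summed to at most 0.31 TPM. The part of these marker differences in the results was not tested. In such bulk RNA, fewer cells of a kind and less RNA per cell cannot be told apart.

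The scale of the libraries bears on every direction given here. Over the 12301 tested genes the median log2 fold change (rSLURP1 minus rGST, of TPM + 1) was −0.33, and limma called 8.66% of all genes higher and 58.5% lower at an adjusted p of 0.05. Median-ratio scaling, which sets the typical gene to no change, moved that median to 0.0063 and the shares to 26.6% higher and 24.6% lower. Calls are therefore given as deposited and after median-ratio scaling, and the median of each class also relative to that of all genes. These shares of all genes are the background for each count of calls given below.

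As deposited, 13 of the 63 tested factor genes were higher with rSLURP1 (20.6%), 28 were lower (44.4%) and 22 passed neither way. After median-ratio scaling, 38 were higher (60.3%), 5 lower (7.94%) and 20 neither. The median log2 fold change of the 63 was −0.12, which is 0.20 above that of all genes, with 49 of the 63 above the all-gene median. Under 4 scalings (as deposited, median-ratio, quantile, and 1 that corrects for the length and GC of transcripts), 12 genes were higher in each: Eef1b2, Eef1g, Eef2, Eef1akmt4, Eif1, Eif1ad, Eif2s2, Eif3f, Eif3h, Eif3i, Eif3k and Eif4ebp1. Those lower in each were 4: Eif1b, Eif2ak2, Eif2ak4 and Eif4a2. Eif3i lost its call when rGST replicate 1, rGST replicate 2 or rSLURP1 replicate 2 was left out (adjusted p of 0.0732, 0.0725 and 0.0621 in limma). The TPM of the treatments did not overlap for 13 higher and 30 lower members, against 9.75% and 61.7% of all tested genes. As deposited, Eif2ak2 was the only member past a 2-fold change at this threshold, which 1.15% of all genes passed upward and 7.06% downward. Eif2ak4, at −0.995, lay just short of it, on a scale of log2(TPM + 1) that understates the change of low genes. After median-ratio scaling Eif2ak2 (−0.85) was short of 2-fold, and Eef1b2 (1.13) and Eif4ebp1 (1.04) were past it upward.

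**Figure D1:**
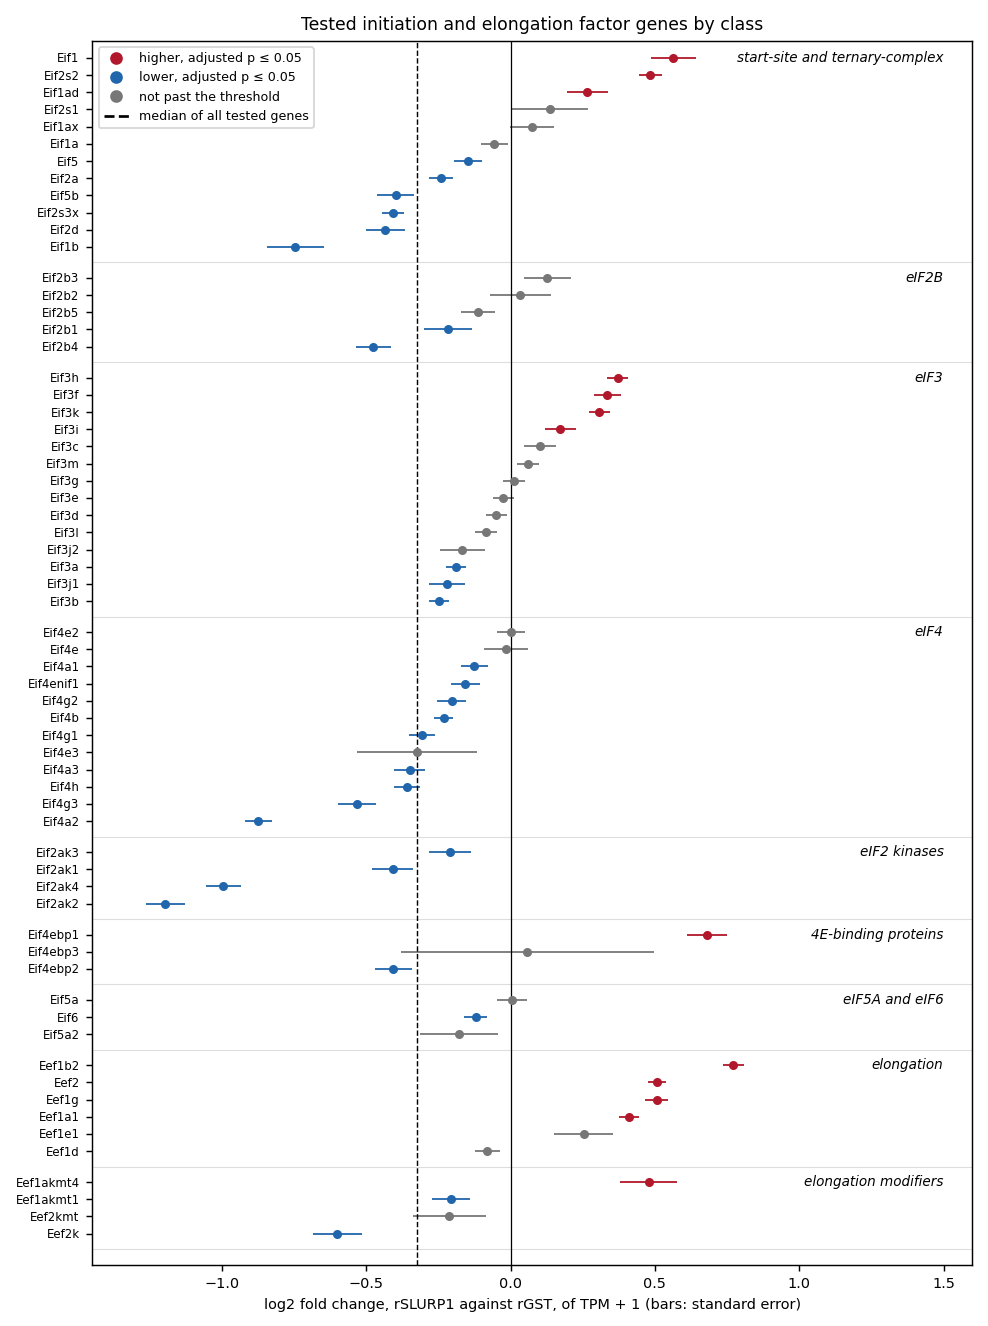
Log2 fold change of TPM + 1 (x axis, rSLURP1 minus rGST) for the 63 tested genes, 1 per line and grouped by class, with bars for the standard error; red points were higher and blue points lower at an adjusted p of 0.05. The dashed line is the median of all tested genes at −0.33; all 6 tested elongation genes lie to its right, and the eIF2 kinases Eif2ak2 and Eif2ak4 lie farthest to its left.

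The elongation factors were the most abundant class and had the highest median fold change of the classes. Of 7 genes 6 were tested, 4 were higher and none lower as deposited, and all 6 were higher after median-ratio scaling. Their median log2 fold change was 0.46, which is 0.78 above the all-gene median. Summed over the class, the level was 11243 ± 138 TPM in rGST libraries and 15372 ± 158 TPM in rSLURP1 libraries (SD, n = 3), a ratio of 1.37.

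Eef1a1 (ENSMUSG00000037742.14, GRCm38 chr9:78478449-78489151, minus strand) alone made up most of that sum. Its TPM was 8163, 7939.8 and 8019 in the rGST libraries and 10611, 10793 and 10653 in the rSLURP1 libraries. The groups did not overlap, and the share of all TPM taken by this gene went from 0.794–0.816% to 1.06–1.08%. The log2 fold change was 0.41 (SE 0.034, limma adjusted p = 4.04e-05). It was 0.77 after median-ratio scaling and 0.69 with the length and GC correction, but 0.083 with quantile normalization, where the call was lost (adjusted p = 0.106 in limma). Eef1a1 has many processed copies in the genome, and how reads were divided among the copies is uncertain.

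Eef1b2, the guanine nucleotide exchange subunit that reloads eEF1A, rose most in the class. It had 1322, 1298 and 1389 TPM with rGST and 2244, 2286 and 2316 with rSLURP1, so that the lowest treated library lay far above the highest control. The log2 fold change was 0.77 (SE 0.037, limma adjusted p = 3.75e-06), or 1.13 after median-ratio scaling. Eef1g, the structural subunit of the same exchange complex, had 415, 423 and 444 TPM against 600.5, 627 and 593 (log2 fold change 0.51, limma adjusted p = 3.28e-05). Eef1d, the other exchange subunit, behaved differently as deposited, with 495, 505 and 511 TPM against 449, 492 and 488. Its groups were separated downward, the log2 fold change of −0.081 missed the threshold (limma adjusted p = 0.134), and it was 0.28 and called higher after median-ratio scaling. Within each library the ratio of Eef1b2 to Eef1d was 2.67, 2.57 and 2.72 with rGST and 4.996, 4.65 and 4.74 with rSLURP1, so subunits of this complex did not change in step.

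Eef2, the translocase, had 917, 888 and 906 TPM in rGST and 1282, 1304 and 1267 in rSLURP1 libraries. The log2 fold change was 0.51 (SE 0.032, limma adjusted p = 1.12e-05) and kept its direction and call under the 4 scalings. Eef2k, the kinase that phosphorylates and inactivates eEF2, went the other way as deposited, with 25.7, 27.9 and 23.6 TPM against 16.6, 15.3 and 17.9. Its log2 fold change was −0.60 (SE 0.085, limma adjusted p = 5.48e-04), −0.26 after median-ratio scaling (adjusted p = 0.0472), and −0.11 and not past the threshold with the length and GC correction (adjusted p = 0.319). Because a factor shared by all genes of a library cancels in a ratio of TPM inside it, Eef2k was also set against Eef2. Scalings that adjust genes by different amounts can still change such a ratio. After quantile normalization the log2 fold changes were −0.21 for Eef2k and 0.41 for Eef2. Log2 differences of these ratios and their tests use TPM + 1, which keeps a small dependence on scale for low genes. The Eef2k to Eef2 ratio was 0.028, 0.0314 and 0.0261 with rGST and 0.0129, 0.0118 and 0.0142 with rSLURP1, a log2 difference of −1.11 with no overlap (two-sided exact permutation test, p = 0.1, the smallest that 3 against 3 allows).

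Eef1e1, an auxiliary protein of the multisynthetase complex that carries an elongation factor name, had 30.9 ± 2.67 TPM against 37.2 ± 4.69 (SD, n = 3) and overlapping groups (limma adjusted p = 0.0605), and was called higher after median-ratio scaling (0.61). Of the methyltransferases, Eef1akmt4, which modifies a lysine of eEF1A, was higher at 10.1, 12.1 and 10.7 against 15.6, 17.1 and 14.2 TPM (log2 fold change 0.48, limma adjusted p = 0.00345). Eef1akmt1, another such enzyme, was lower as deposited (−0.21, limma adjusted p = 0.0264), a call lost under the other 3 scalings and without rGST replicate 1, rSLURP1 replicate 1 or rSLURP1 replicate 3. Eef2kmt, which acts on eEF2, showed a log2 fold change of −0.21 that did not pass (limma adjusted p = 0.172). These modifier genes did not share a direction. With Eef2k, 1 was higher, 2 lower and 1 neither as deposited, and 1 higher, 1 lower and 2 neither after median-ratio scaling. Their median was 0.12 above that of all genes as deposited, and −0.012 relative to it with the length and GC correction.

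**Figure D2:**
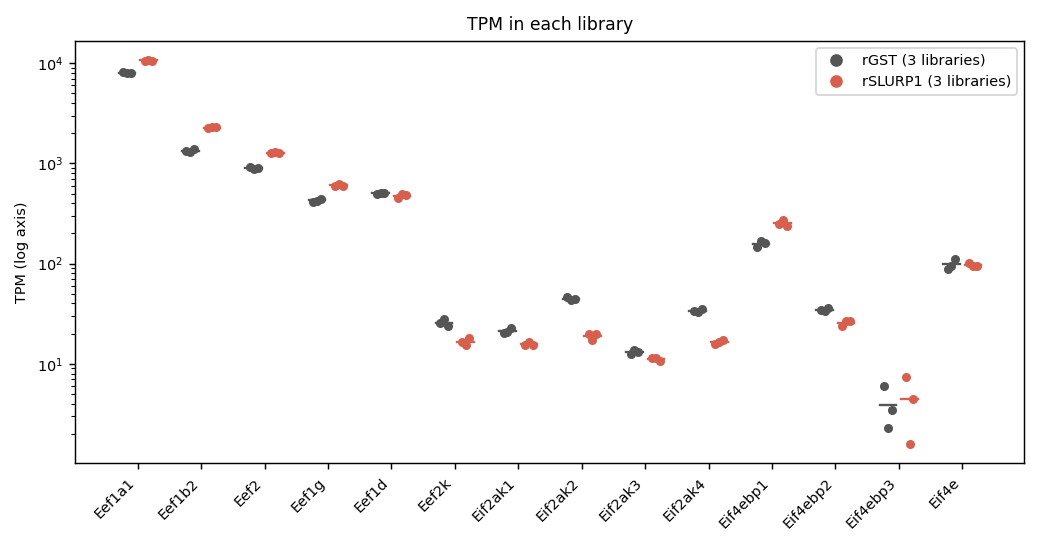
TPM in each of the 6 libraries (log axis) for the genes the results turn on, with 3 rGST and 3 rSLURP1 points per gene and a bar at each group mean. Eef1a1, Eef1b2, Eef2, Eef1g and Eif4ebp1 lie higher in every rSLURP1 library, the eIF2 kinases, Eif4ebp2 and Eef2k lie lower in every one, and Eif4e and Eif4ebp3 overlap.

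Initiation, taken as the start-site factors, eIF2B, eIF3 and eIF4 together, had 45 genes, of which 43 were tested. As deposited 7 were higher, 20 lower and 16 neither, and after median-ratio scaling 28 were higher, 2 lower and 13 neither. Their median log2 fold change was −0.13, or 0.20 above the median of all genes. The summed level was 7339 ± 74.8 TPM in the control and 7165 ± 229 TPM in the treated libraries (SD, n = 3), and the libraries overlapped. Per library, the sum over elongation genes was 1.55, 1.52 and 1.52 times that over initiation genes with rGST and 2.15, 2.09 and 2.19 times with rSLURP1. Leaving out Eef1a1, it was 0.435, 0.431 and 0.442 against 0.652, 0.639 and 0.671, so the separation was present without the most abundant gene. These sums were set against each other after the values had been seen and were not tested.

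Among the factors that select the start codon, the levels diverged between close relatives. Of 12 tested start-site and ternary-complex genes 3 were higher, 6 lower and 3 neither as deposited, and 7 were higher, 1 lower and 4 neither after median-ratio scaling, with a median of −0.10, or 0.22 above that of all genes. Eif1, which guards the choice of start codon, had 597, 606 and 712 TPM with rGST and 888, 1012 and 925 with rSLURP1 (log2 fold change 0.56, SE 0.078, limma adjusted p = 4.98e-04). Its paralog Eif1b fell, from 53.7, 49.1 and 44.6 to 33, 27.1 and 26.6 TPM (log2 fold change −0.75, SE 0.099, limma adjusted p = 4.04e-04). Neither pair of groups overlapped, and both kept their direction and call under the 4 scalings. The ratio of Eif1b to Eif1 was 0.0899, 0.081 and 0.0627 in the rGST libraries and 0.0372, 0.0268 and 0.0288 in the rSLURP1 libraries. The X-linked Eif1ax (138 ± 7.2 against 146 ± 14.1 TPM) and Eif1a (89 ± 2.97 against 85.6 ± 3.32), which both encode eIF1A, overlapped between treatments as deposited (SD, n = 3), and both were called higher after median-ratio scaling (0.43 and 0.30).

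The subunits of eIF2 also moved apart. Eif2s2, the beta subunit, had 132, 127 and 129 TPM with rGST and 182, 187 and 175 with rSLURP1 (log2 fold change 0.48, SE 0.04, limma adjusted p = 3.86e-05). Eif2s3x, the gamma subunit that binds the initiator tRNA and GTP, had 148, 143 and 144 against 109, 112 and 106. Its log2 fold change was −0.41 as deposited (SE 0.039, limma adjusted p = 7.99e-05) and −0.047 after median-ratio scaling, where it did not pass. After quantile normalization Eif2s3x was called lower. Eif2s1, the alpha subunit that the kinases phosphorylate, had 70.3, 69.8 and 49 TPM against 65.8, 67.2 and 72.7, with rGST replicate 3 apart from the others. Its log2 fold change of 0.14 missed the threshold (limma adjusted p = 0.391) and was −0.032 without that library. Eif2s1 was called higher after median-ratio scaling (0.49, limma adjusted p = 0.0185), quantile normalization (0.43, 0.0399) and correction for length and GC (0.50, 0.0164). The Eif2s2 to Eif2s3x ratio went from 0.887, 0.888 and 0.902 to 1.67, 1.67 and 1.65, with a spread within each treatment far below the gap between them. The start-site class was sorted by gene name, which does not show that each gene, such as Eif1ad, acts in start-site choice. Of its other genes, Eif1ad was higher (log2 fold change 0.27), and Eif5 (−0.15), Eif5b (−0.40), Eif2a (−0.24) and Eif2d (−0.44) were lower as deposited. Eif5, the GTPase activator of eIF2, was called higher after median-ratio scaling (0.21), and its deposited call was lost without rGST replicate 1, rSLURP1 replicate 1 or rSLURP1 replicate 3. Eif5b, which joins the ribosomal subunits, Eif2a and Eif2d passed in neither direction after median-ratio scaling.

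eIF2B, the exchange factor that recharges eIF2 with GTP and that phosphorylated eIF2 inhibits, had all 5 subunits tested. As deposited Eif2b4 (51.5 ± 2.99 against 36.8 ± 1.68 TPM, log2 fold change −0.48, limma adjusted p = 3.37e-04) and Eif2b1 (−0.22, limma adjusted p = 0.049) were lower, and none was higher. The class median was −0.11, or 0.21 above that of all genes. Eif2b4 lost its call after median-ratio scaling (−0.12, limma adjusted p = 0.103) and quantile normalization (−0.14, 0.0753), and Eif2b1 after median-ratio scaling. Eif2b1 had overlapping groups and lost its call without rGST replicate 1, rGST replicate 3, rSLURP1 replicate 2 or rSLURP1 replicate 3. Eif2b2, Eif2b3 and the catalytic subunit Eif2b5 (60.5, 60.4 and 57.7 against 50.9, 58.4 and 55.9 TPM) passed neither way, and were the 3 called higher after median-ratio scaling. As deposited, Eif2b3 passed only without rSLURP1 replicate 3 (0.20, limma adjusted p = 0.0496).

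eIF3, the large scaffold on the small subunit, had log2 fold changes in the narrow range of −0.25 to 0.37. All 14 genes were tested and all 14 lay above the all-gene median, at a median log2 fold change of −0.0073, or 0.32 above it. As deposited 4 were higher, 3 lower and 7 neither, and after median-ratio scaling 12 were higher and none lower. Eif3h had 319, 309.9 and 316 TPM with rGST and 409, 419 and 394 with rSLURP1 (log2 fold change 0.37, limma adjusted p = 8.78e-05). Eif3f (0.33), Eif3k (0.31) and Eif3i (0.17) were the other genes called higher. The core subunits Eif3a (−0.19) and Eif3b (−0.25), and the loosely attached Eif3j1 (−0.22), were lower as deposited. Eif3b had 164, 167 and 164 TPM against 139, 141 and 137, which is separated, yet was 0.11 and called higher after median-ratio scaling, as was Eif3a at 0.17. Eif3j1 lost its call after median-ratio scaling and without rGST replicate 3, and since Eif3j1 and Eif3j2 are near copies, the division of reads within this pair is uncertain.

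The eIF4 class, which binds the cap and unwinds the leader of the mRNA, was lower as deposited for 9 of 12 tested genes and higher for none. Of all genes, 58.5% were lower and 8.66% higher as deposited. After median-ratio scaling 6 of the class were higher, 1 lower and 5 neither, against 26.6% higher and 24.6% lower of all genes. After quantile normalization Eif4a1, Eif4a2, Eif4a3, Eif4g1 and Eif4h were called lower, and Eif4e, Eif4e2 and Eif4enif1 higher. The class median log2 fold change was −0.27, or 0.056 above that of all genes. Relative to all genes it was −0.13 after quantile normalization, −0.13 without a filter and 0.16 with the length and GC correction, so its sign depended on the processing. Its summed level was 3220 ± 32.4 TPM under rGST and 2657 ± 94.1 under rSLURP1 (SD, n = 3). The ratio of the eIF3 sum to the eIF4 sum was 0.712, 0.696 and 0.702 with rGST and 0.920, 0.886 and 0.918 with rSLURP1.

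The gene that fell under every scaling in this class was Eif4a2, a paralog of the eIF4A helicase. Its TPM was 450.3, 454 and 427 in rGST and 229, 249.8 and 247 in rSLURP1 libraries, a log2 fold change of −0.87 (SE 0.046, limma adjusted p = 5.49e-06) that was −0.51 after median-ratio scaling. Eif4a1, the main helicase, had 985, 1029 and 1031 against 933, 978 and 881 TPM. Its call of lower as deposited (−0.13, limma adjusted p = 0.0408) turned to higher after median-ratio scaling (0.24) but stayed lower after quantile normalization. The deposited call was lost when any library other than rSLURP1 replicate 2 was left out. The Eif4a2 to Eif4a1 ratio was 0.457, 0.441 and 0.415 with rGST and 0.245, 0.256 and 0.280 with rSLURP1 (log2 difference −0.75, two-sided exact permutation p = 0.1). Eif4a3, which acts in the exon junction complex rather than at the cap, had 168 ± 5.24 against 131 ± 8.53 TPM (log2 fold change −0.35, limma adjusted p = 8.70e-04), and 0.011 after median-ratio scaling.

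The cap-binding genes themselves were close in level between treatments. Eif4e had 89.4, 95.6 and 110.1 TPM with rGST and 101, 94.4 and 95.4 with rSLURP1, and Eif4e2, a cap-binding relative that represses translation, had 118, 108 and 109 against 113, 114 and 108. Neither passed as deposited (limma adjusted p = 0.864 and 0.979), both overlapped, and both were called higher after median-ratio scaling (0.34 and 0.36). The Eif4e2 to Eif4e ratio differed by 0.018 on the log2 scale with overlapping libraries (two-sided exact permutation p = 0.9). Eif4e3 was near the filter, at 1.04, 1.07 and 1.11 against 0.56, 1.17 and 0.34 TPM, and its log2 fold change of −0.32 missed the threshold (limma adjusted p = 0.2) but passed without rSLURP1 replicate 2 (−0.52, adjusted p = 0.0416).

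The scaffold Eif4g1 had 328, 321 and 346 TPM with rGST and 259, 281 and 264 with rSLURP1 (log2 fold change −0.31, limma adjusted p = 7.19e-04). Eif4g3, its paralog, fell from 32.5 ± 1.56 to 22.2 ± 1.24 TPM (−0.53, limma adjusted p = 2.59e-04), and Eif4g2, which lacks the eIF4E binding site, from 308 ± 6.58 to 267 ± 16.9 (−0.20, limma adjusted p = 0.00853). After median-ratio scaling Eif4g2 was called higher (0.16) and the other genes of the trio passed neither way. Relative to Eif4g1, Eif4g2 was 0.938, 0.939 and 0.911 with rGST and 0.966, 1.01 and 1.02 with rSLURP1, a log2 difference of 0.10, while Eif4g3 overlapped (difference −0.23, exact permutation p = 0.2). The helicase cofactors Eif4b (−0.23) and Eif4h (−0.36) were lower as deposited, and Eif4b was higher (0.13) and Eif4h passed neither way (0.0011) after median-ratio scaling. Eif4enif1, which carries eIF4E into the nucleus, was −0.16 as deposited and 0.20 and called higher after median-ratio scaling, and its deposited call was lost without rGST replicate 2, rGST replicate 3 or rSLURP1 replicate 3.

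All 4 eIF2 kinases were lower as deposited, as were 58.5% of all genes. Of these kinases 2, Eif2ak2 and Eif2ak4, were lower under each of the 4 scalings. The median log2 fold change of the 4 kinases was −0.70, which relative to all genes is −0.38. Together they summed to 113 ± 2.05 TPM under rGST and 62.4 ± 0.627 under rSLURP1 (SD, n = 3), a ratio of 0.552. Eif2ak2 (PKR, ENSMUSG00000024079.4), which is activated by double-stranded RNA, had 46.5, 43.2 and 44.4 TPM with rGST and 19.8, 17.4 and 19.7 with rSLURP1. The highest treated library was below the lowest control library by a wide margin, and the log2 fold change was −1.20 (SE 0.068, limma adjusted p = 7.38e-06), or −0.85 after median-ratio scaling. Eif2ak4 (GCN2), which senses uncharged tRNA, had 33.6, 33.2 and 34.9 TPM against 15.7, 16.5 and 17.4, a log2 fold change of −0.995 (SE 0.061, limma adjusted p = 1.03e-05), or −0.65 after median-ratio scaling.

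The other kinases moved less. Eif2ak1 (HRI, the heme-regulated kinase) had 20.2, 20.8 and 22.7 TPM with rGST and 15.4, 16.5 and 15.3 with rSLURP1 (log2 fold change −0.41, limma adjusted p = 0.00145), and −0.065 without a call after median-ratio scaling. Eif2ak3 (PERK, the kinase of the endoplasmic reticulum) had 12.4, 13.8 and 13.2 TPM against 11.4, 11.5 and 10.7. Its call as deposited (−0.21, limma adjusted p = 0.0366) was lost when any library but rGST replicate 1 was left out, and its log2 fold change was 0.12 without a call after median-ratio scaling and 0.25 and called higher with the length and GC correction. Against the eIF2 subunits in the same library, the summed kinases stood at 0.322, 0.326 and 0.358 with rGST and 0.174, 0.169 and 0.178 with rSLURP1.

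For each kinase the ratio to its substrate gene Eif2s1 was also taken. It was lower with rSLURP1 for all 4 without overlap, by −1.33 on the log2 scale for Eif2ak2, −1.13 for Eif2ak4, −0.55 for Eif2ak1 and −0.35 for Eif2ak3 (two-sided exact permutation p = 0.1 each, 0.127 after Benjamini-Hochberg adjustment over 14 ratios). These ratios share Eif2s1, whose low level in rGST replicate 3 raised each of them there, and for Eif2ak2 the values were 0.661, 0.620 and 0.905 with rGST and 0.302, 0.258 and 0.271 with rSLURP1. Without rGST replicate 3 the log2 differences were −1.17, −0.94, −0.33 and −0.17 in the same order. Eif2b5 against Eif2s1 overlapped (log2 difference −0.25, exact permutation p = 0.3).

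A stretch near the start of Eif2ak2 is shown because it holds GAAA and, after 2 free bases, GAAA again, a core of the element through which interferon signaling is known to act on PKR. In the 30 bases of RefSeq sequence on build GRCm38.p6 below, capitals mark the match, which begins at base 19 with the annotated start counted as 1.
Eif2ak2 (chr17:78882535-78882564, minus strand): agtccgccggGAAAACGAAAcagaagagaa
Searched on both strands, these letters were present in 3.44% of all promoter rows and in 4 tested factor genes, Eif2ak2, Eif2s1, Eif2s3x and Eif3a. By gene, with any of its rows counted, they were in 0 of 9 higher, 3 of 25 lower and 1 of 15 genes past neither threshold. Shares of rows and of genes are unlike units. Eif2ak2, Eif2s3x and Eif3a were lower as deposited, as were 58.5% of all genes, and after median-ratio scaling Eif2ak2 was lower, Eif2s1 and Eif3a were higher and Eif2s3x had no call.

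The 4E-binding proteins did not share a direction, with 1 higher, 1 lower and 1 neither as deposited and 1 higher and 2 neither after median-ratio scaling. Their median relative to all genes (0.38) is that of Eif4ebp3 and ranged from −0.013 without rSLURP1 replicate 1 to 0.86 without rSLURP1 replicate 2. Eif4ebp1, the mTOR substrate that holds eIF4E away from eIF4G, had 147, 166 and 159.6 TPM with rGST and 251, 274 and 235 with rSLURP1. All rSLURP1 libraries were above all rGST libraries, with a log2 fold change of 0.68 (SE 0.068, limma adjusted p = 9.87e-05), or 1.04 after median-ratio scaling. Eif4ebp2, the form prominent in brain, was lower as deposited at 34.3, 33.4 and 36 against 24, 27 and 26.5 TPM (log2 fold change −0.41, limma adjusted p = 9.10e-04), and −0.056 without a call after median-ratio scaling. Eif4ebp3 varied more within than between treatments, at 5.97, 2.3 and 3.49 against 7.33, 1.58 and 4.42 TPM (limma adjusted p = 0.914).

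Set against the cap-binding gene in the same library, Eif4ebp1 to Eif4e was 1.64, 1.74 and 1.45 with rGST and 2.49, 2.90 and 2.46 with rSLURP1, a log2 difference of 0.70. Eif4ebp2 to Eif4e went the other way, from 0.384, 0.350 and 0.327 to 0.238, 0.286 and 0.278, a difference of −0.39. Both were separated at the smallest exact permutation p of 0.1 (0.127 adjusted over the 14 ratios). Summed over the 3 genes the level was 196 ± 8 TPM under rGST and 283 ± 18.2 under rSLURP1 (SD, n = 3), which follows Eif4ebp1, the most abundant of them.

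**Figure D3:**
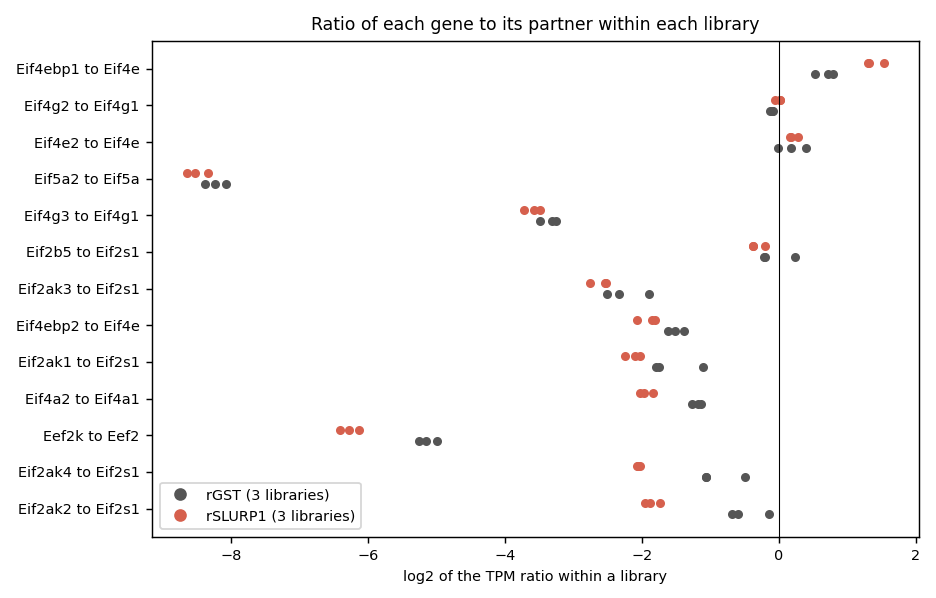
Log2 TPM ratios of pairs of factor genes inside each library (x axis), with 3 rGST and 3 rSLURP1 points per pair. A factor shared by all genes of a library cancels in these values. Adjusting genes of a library by different amounts, as when matching quantiles or correcting for length and GC, can change them. Eif2ak2 and Eif2ak4 to Eif2s1, Eef2k to Eef2 and Eif4a2 to Eif4a1 are lower in every rSLURP1 library and Eif4ebp1 to Eif4e is higher in every one, while Eif4e2 to Eif4e overlaps.

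Over the 14 ratios of TPM, 2 were separated upward with rSLURP1, 7 downward, and 5 overlapped. With the pseudocount of 1 that entered the tests, Eif5a2 to Eif5a (log2 difference −0.18) and Eef1a2 to Eef1a1 were also separated downward, and with a pseudocount of 0.1 neither was (exact permutation p = 0.2 and 0.3). Eef1a2 was at or near 0, so its ratio rests on Eef1a1 alone.

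The 3 eIF5A and eIF6 genes had a median 0.20 above that of all genes, with 1 lower and 2 neither as deposited and 2 higher and 1 neither after median-ratio scaling. Eif5a, which helps ribosomes through difficult peptide bonds, had 714, 729 and 795 TPM with rGST and 741, 779 and 722 with rSLURP1 (limma adjusted p = 0.948), overlapping as deposited and called higher at 0.37 after median-ratio scaling. Its paralog Eif5a2 stood at 2.17, 2.7 and 2.59 against 1.84, 2.43 and 1.98 TPM and was not called. Eif6, which keeps the large subunit from joining early, was −0.12 as deposited (169, 170.4 and 176 against 156, 163 and 154 TPM, limma adjusted p = 0.0272) and 0.24 and called higher after median-ratio scaling. The deposited call was lost without rGST replicate 2, rGST replicate 3, rSLURP1 replicate 1 or rSLURP1 replicate 3.

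Of 43 other genes of the pathway listed by name, 42 were found and tested, and their median log2 fold change of −0.30 was close to that of all genes. As deposited 3 were higher, 25 lower (against 58.5% of all genes) and 14 neither, and after median-ratio scaling 14 were higher, 8 lower and 20 neither. The 3 higher genes were Pabpc1 (0.11) and Pabpc4 (0.18), poly(A)-binding proteins that join the mRNA ends through eIF4G, and Ppp1r15a (GADD34), which directs the removal of phosphate from eIF2. Ppp1r15a had 29, 34.1 and 33.5 TPM with rGST and 45.8, 54.9 and 36.8 with rSLURP1 (log2 fold change 0.48, limma adjusted p = 0.0162), which is the opposite direction to the eIF2 kinases. Impact, an inhibitor of GCN2 activation, had 86.9, 84.3 and 85 TPM against 51.8, 53.4 and 53.6 (−0.68, limma adjusted p = 9.41e-06), so it was lower along with Eif2ak4.

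Genes that signal to eIF4E and eEF2 were examined from the same list. Of 7 genes of mTOR, S6 kinase and MNK signaling, 6 were lower and 1 neither as deposited. After median-ratio scaling 3 were lower, 1 higher and 3 neither. Of all genes, 58.5% were lower as deposited and 24.6% after median-ratio scaling, and with 7 genes these counts are a description only. Mtor, the kinase that phosphorylates 4E-BP1, had 60.1, 55.6 and 55.4 TPM with rGST and 20.8, 22.1 and 20.7 with rSLURP1. Its log2 fold change was −1.39 (SE 0.057, limma adjusted p = 1.80e-06), or −1.04 after median-ratio scaling, and its ratio to Eif4ebp1 went from 0.410, 0.335 and 0.347 to 0.0826, 0.0807 and 0.0882. Rps6kb1 (−0.79), the S6 kinase that acts on Eef2k and eIF4B, and Mknk2 (−0.59), which phosphorylates eIF4E, were also lower on both scales. Of 9 genes for the enzymes that make hypusine and diphthamide, 5 were lower as deposited, a share near that of all genes. After median-ratio scaling 3 of them, Dhps (−0.64 as deposited), Dph1 (−0.66) and Dph7 (−0.73), were lower, against 24.6% of all genes. On that scale 2 of the 9, Dohh (0.24) and Dph3 (0.44), were called higher and 4 neither. Dhps and Dohh act in making the hypusine of eIF5A, and the Dph enzymes in making the diphthamide of eEF2.

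Transcript length and level went with the direction of change. The longest annotated transcript of the 13 higher members had a median of 1939 bases and that of the 28 lower members 3783 bases, and their median rGST levels were 273 and 62.5 TPM. Spearman's rho between log2 fold change and transcript length was −0.43 over the 63 members and −0.25 over all tested genes, as a description across genes that share the same 6 libraries. With the correction for length and GC content, 40 members were higher (63.5%, against 27% of all genes) and 5 were lower (7.94%, against 21.9%). The 13 that were higher as deposited were among the 40. This correction also shifts the level of each library, with an all-gene median of 0.030 in place of −0.33. Median-ratio scaling, which uses no length, gave 38 higher, so these counts do not show the part of length.

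**Figure D4:**
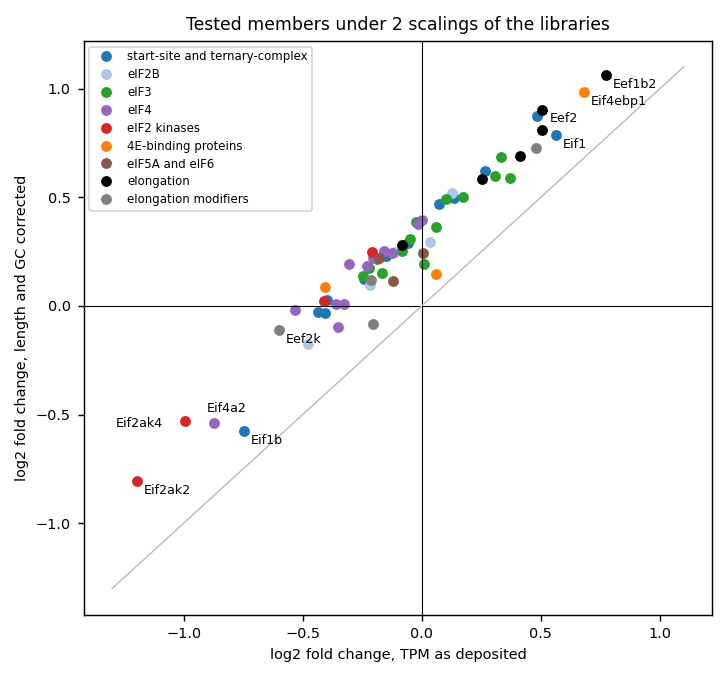
Log2 fold change as deposited (x axis) against log2 fold change with the length and GC correction (y axis) for the 63 tested genes, colored by class; the grey line marks equal values. Points lie above the line, and Eif2ak2, Eif2ak4, Eif4a2 and Eif1b stay below 0 on both axes. The correction also moved the median of all tested genes from −0.33 to 0.030.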

How the data were processed

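RNAseq of 6 D2A1 libraries, 3 treated with rGST and 3 with rSLURP1, was grouped by the sample labels. Per the submitters' processing notes, which name bcl2fastq 2.20, cutadapt 1.18, STAR 2.5.2b and RSEM 1.3.3, and the methods, which name other versions of cutadapt and RSEM, the authors trimmed reads, aligned them to mm10, quantified genes on GENCODE M12 and deposited TPM, 1 column per library. The library kit is uncertain: TruSeq mRNA in the labels, Smart-seq2 in the methods. Depth is unknown from TPM and no counting error was computed.

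The deposited TPM were transformed to log2(TPM + 1), and the 12301 genes that reached 1 TPM in 3 or more libraries were compared between treatments with limma (3.58.1, R 4.3.3; lmFit and eBayes, trend on). No block was used, p-values were adjusted over these genes (Benjamini-Hochberg), and the threshold was 0.05. Ratios of genes within a library, on log2(TPM + 1), were compared by two-sided exact permutation tests over the 6 libraries, adjusted over the 14 ratios. Alternatives were a pseudocount of 0.1, other filters, scaling by median ratio or quantiles, removal of mitochondrial genes, trend off, a replicate block, a loess correction (span 0.3) for transcript length and GC content, and leaving out each library. The scripts were tested on simulated data. Coordinates and lengths are from GENCODE M21, which 54079 gene identifiers matched without version. Promoter sequences are from RefSeq.

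The genes named in full were all Eif2ak, Eif4ebp, Eif4e, Eif4g, Eif4a and Eif5a names, Eif2s1, Eif2b5, Eif6, Eif1, Eef1a1, Eef1a2, Eef1b2, Eef1d, Eef1g, Eef2 and Eef2k, members changed 2-fold, and the tested member with the highest and the lowest fold change in each class. Others were named with their calls, and Eif2s2, Eif2s3x and the summed ratios of classes were taken up after their values were seen. The ratios of Eef1b2 to Eef1d, Eif1b to Eif1, Eif2s2 to Eif2s3x and Mtor to Eif4ebp1 were added later and were not tested. The members, classes and lists were chosen with earlier results of these data known.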

Additional observations from a re-analysis of the deposited data

How the results depend on the processing

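The scale of the libraries decided most counts. Members higher, 13 as deposited, were 38 under median-ratio scaling, 28 after quantile normalization, 40 on correcting length and GC, and 0 at a fold change of at least 2 (limma); members lower, 28 as deposited, were 5, 9, 5 and 1. Over all tested genes, 1065 higher became 3274, 3111 and 3320 and 7200 lower became 3029, 2905 and 2690 under the first 3 of these. The other filters and pseudocount, and leaving out mitochondrial genes or the trend, kept these counts within 1.5 times. Leaving out each library gave 12 to 16 members higher and 21 to 27 lower, and 906 to 1020 and 6605 to 6999 over all genes.

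The median of elongation genes relative to all genes (0.78) was 0.81 with a pseudocount of 0.1 and under median-ratio scaling, 0.51 without a filter, 0.40 after quantile normalization, 0.72 on correcting length and GC, and 0.77 to 0.78 without each library. That of initiation genes (0.20) was 0.23 with a pseudocount of 0.1 and under median-ratio scaling, 0.16 after quantile normalization, −0.022 without a filter, whose reference median takes in genes near 0, and 0.18 to 0.21 without each library. That of the eIF2 kinases (−0.38) was −0.60 without a filter, −0.33 after quantile normalization, −0.28 on correcting length and GC and −0.40 to −0.34 without each library. That of the 4E-binding proteins (0.38) rests on 3 genes, with Eif4ebp3 in the middle: it was 0.12 on correcting length and GC, and 0.67, 0.13, −0.013 and 0.86 without rGST replicate 1, rGST replicate 2, rSLURP1 replicate 1 and rSLURP1 replicate 2, a range of −0.013 to 0.86.

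For the genes named in full only, and not for the other members, those whose direction turned with the scale are given as log2 fold changes. Under median-ratio scaling they were Eef1d (0.28), Eif2ak3 (0.12), Eif2b5 (0.24), Eif3b (0.11), Eif4a1 (0.24), Eif4a3 (0.011), Eif4e (0.34), Eif4enif1 (0.20), Eif4g1 (0.055), Eif4g2 (0.16), Eif5a2 (0.072) and Eif6 (0.24). After quantile normalization they were Eif2ak3 (0.19), Eif2b5 (0.19), Eif4e (0.24), Eif4e3 (0.046), Eif4enif1 (0.18), Eif5a2 (0.18) and Eif6 (0.076). On correcting length and GC they were Eef1d (0.28), Eif2ak1 (0.023), Eif2ak3 (0.25), Eif2b5 (0.25), Eif3b (0.14), Eif4a1 (0.24), Eif4e (0.38), Eif4e3 (0.0069), Eif4ebp2 (0.085), Eif4enif1 (0.25), Eif4g1 (0.19), Eif4g2 (0.22), Eif5a2 (0.22) and Eif6 (0.11), the same values with the replicate block added. Eif4e was 0.011 without mitochondrial genes. Leaving out each library turned the direction of Eif2s1 (−0.032 to 0.22), Eif4e (−0.081 to 0.067), Eif4e2 (−0.022 to 0.043), Eif4ebp3 (−0.33 to 0.52), Eif5a (−0.027 to 0.051) and the Eif4e2 to Eif4e ratio (−0.083 to 0.12). The causes were not tested.

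Libraries with the same replicate number did not deviate together (correlations of −0.056, −0.034 and −0.061, against a mean of 0.025 for other pairs), so the numbers were not taken as a pairing. With the replicate block, 13 members were higher and 22 lower, and 1008 and 6954 of all genes. With the block added to the correction for length and GC, 38 members were higher and 5 lower, 3095 and 2468 of all genes, and the medians relative to all genes were 0.72 for elongation genes, −0.28 for the eIF2 kinases and 0.12 for the 4E-binding proteins. For a ratio within a library, the smallest paired exact permutation p is 0.25, so no ratio could pass the threshold in a paired test. No count model was run because TPM keep no reads.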
